A study of Mus musculus with 6 samples.

Results

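The 48 genes described here are 25 immediate early genes and 23 genes of NF-kB signalling, chosen by symbol from 21881 genes listed in both tables. They were measured by RNA-seq in mouse leukemia cells of strain C57/B6X129SV that carry AE9a, a shortened AML1-ETO fusion that causes leukemia in mice. The cells of all groups carry Id1 fl/fl alleles (Id1 flanked by loxP sites) and CreER, a fusion of Cre recombinase that becomes active when it binds 4-OHT or a related ligand. By their labels the samples form 3 groups with 2 in each, namely control, CBD at 15 µM for 16 h (given in the design as an inhibitor of Id1) and 4-hydroxytamoxifen (4-OHT) at 0.1 µM for 48 h. A vehicle is not named, and cells given 4-OHT without loxP sites are not analysed here, so loss of Id1 and other effects of 4-OHT or Cre cannot be told apart. Each table holds 1 FPKM value (fragments scaled to transcript length and sequencing depth) per group. One table compares CBD with a control column and the other compares 4-OHT with a different control column. In the labels, one control sample is described with the CBD samples and the other with the tamoxifen samples. How many libraries stand behind each column is not given, so no SD or n can be set beside a value.

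Immediate early genes are transcribed within minutes of a stimulus without new protein synthesis, because their activators already wait in the cell as targets of MAP kinase and calcium signalling. Many encode transcription factors with short-lived mRNAs (AP-1, EGR and NR4A proteins), and others, such as phosphatases, shut the signal down again. NF-kB dimers are held in the cytoplasm by IkB proteins, and signals from tumor necrosis factor or interleukin 1 receptors degrade IkB and free the dimers to enter the nucleus. Their targets include their own inhibitors, cytokines and adhesion molecules.

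A gene is said to have risen or fallen where the authors' deposited table gives a q, adjusted over all genes tested, below 0.05. Log2 folds have 0.1 FPKM added to both values. Of the 48 members, 44 were tested in the CBD comparison and 37 in the 4-OHT comparison, and the same 37 were tested in both. A level of 1 FPKM in at least 1 column was reached by 40 members. The other 8 are Fosb, Egr2, Egr3, Nr4a3, Klf4, Il1b, Ccl3 and Cd40, whose highest value in any column was 0.815 FPKM, and of these Egr3, Klf4 and Cd40 are listed at 0 in at least 1 column. A member enters a test if it is high enough in either group, so counts over tested members describe those members and do not stand for all 48. Id1 was at 34.2 FPKM in the control and 11.95 with CBD (in the authors' deposited table q = 0.133), and at 15.4 FPKM in the control and 0.741 with 4-OHT (the authors' deposited table lists its q as 0). The summed level of 7 markers of leukemia blasts and progenitors was 401 FPKM in the control of the CBD table, 284 with CBD, 299 in the control of the 4-OHT table and 282 with 4-OHT. Of these, Kit lay between 75.0 and 95.6 FPKM in all 4 columns, and Mpo and Ptprc stayed under 0.5 FPKM in each. Runx1 fell with CBD from 92.6 to 47.4 FPKM and stood at 38.0 in the control of the 4-OHT table, and Myb fell with CBD from 107 to 65.5 FPKM. Gata2 was at 113 FPKM in the control of the CBD table and 51.3 in that of the 4-OHT table. With 4-OHT, Kit fell from 95.6 to 78.8 FPKM and Myb from 112 to 97.7 FPKM. Runx1 rose with 4-OHT from 38.0 to 42.9 FPKM and Gata2 from 51.3 to 59.9 FPKM. In bulk RNA, fewer cells of a type and less RNA per cell cannot be told apart.

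The RefSeq promoter table (GRCm38.p6, 250 bases before to 50 after each start) holds 38 of the 48 members. Those without an entry are Fosl1, Egr1, Egr3, Ier2, Arc, Nfkb1, Relb, Ccl4, Cd40 and Cd83. The 5 promoters below, the 250 bases before the start on the gene's strand, were chosen after their values were seen. They show matches to response elements of both gene classes, in members that rose with 4-OHT. A call with 4-OHT and a match before the start were both required, so matches in these genes follow from the choice. Capitals mark the matches. They are an NF-kB site in Fos, Ier3 and Nfkbia, a cyclic AMP response element followed by an EGR site in Btg2, and an EGR site followed by a CArG box (the site of serum response factor) in Zfp36.
Fos, chr12:85473640-85473889, + strand: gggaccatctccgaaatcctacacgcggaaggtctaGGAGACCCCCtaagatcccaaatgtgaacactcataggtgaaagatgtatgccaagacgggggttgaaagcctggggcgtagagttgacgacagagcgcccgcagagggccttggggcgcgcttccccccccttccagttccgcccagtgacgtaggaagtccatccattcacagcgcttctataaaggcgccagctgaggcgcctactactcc
Ier3, chr17:35821463-35821712, + strand: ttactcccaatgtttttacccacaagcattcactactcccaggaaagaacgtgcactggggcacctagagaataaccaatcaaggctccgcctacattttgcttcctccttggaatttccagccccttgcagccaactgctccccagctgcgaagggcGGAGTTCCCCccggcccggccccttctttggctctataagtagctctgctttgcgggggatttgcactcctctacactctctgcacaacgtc
Btg2, chr1:134079156-134079405, - strand: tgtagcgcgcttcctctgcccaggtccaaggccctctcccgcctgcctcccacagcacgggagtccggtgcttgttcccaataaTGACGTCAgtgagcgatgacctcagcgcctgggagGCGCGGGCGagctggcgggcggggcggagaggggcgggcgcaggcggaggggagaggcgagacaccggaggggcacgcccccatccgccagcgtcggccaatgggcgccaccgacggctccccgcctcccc
Zfp36, chr7:28379229-28379478, - strand: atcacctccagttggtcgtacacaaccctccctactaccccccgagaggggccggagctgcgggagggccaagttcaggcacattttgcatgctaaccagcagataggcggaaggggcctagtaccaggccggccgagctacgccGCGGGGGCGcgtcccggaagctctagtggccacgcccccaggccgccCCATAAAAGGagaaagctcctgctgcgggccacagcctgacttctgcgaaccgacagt
Nfkbia, chr12:55492648-55492897, - strand: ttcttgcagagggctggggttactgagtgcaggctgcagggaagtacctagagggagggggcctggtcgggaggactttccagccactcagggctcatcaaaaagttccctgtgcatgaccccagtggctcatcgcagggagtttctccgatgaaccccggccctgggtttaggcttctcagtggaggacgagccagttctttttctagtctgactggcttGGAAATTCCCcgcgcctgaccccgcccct

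Over the 38 members with a promoter, the NF-kB consensus was matched in 13 (34.2%), against 5.14% of 27025 genes with promoters of the same length. A gene counted as matched if any of its promoters held a match. Of those 13, 8 belong to the NF-kB genes and 5 to the immediate early genes, namely Fos, Fosb, Fosl2, Nr4a1 and Ier3. The EGR site GCGNGGGCG was matched in 10 members (26.3%), 8 of them immediate early genes, against 6.27% of all genes with a promoter. An AP-1 site, TGACTCA or TGAGTCA, was matched in 5 members (13.2%, against 5.95%). The cyclic AMP response element TGACGTCA was matched in Btg2 and Dusp1 (5.26%, against 2.03%), and the CArG box in Egr2 and Zfp36 (5.26%, against 1.81%). Both strands were searched, and no match in a member overlapped a match of another motif. A match describes the letters in the window and is not evidence of binding.

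The control columns of the tables stood far apart for these genes. Among the 37 members tested in both tables, the control of the CBD table was at least 2-fold higher in 19 and at least 2-fold lower in 0, where the shares over all 10867 genes tested in both were 7.36% and 4.56%. The median log2 ratio of the members was 1.22, a 2.34-fold difference, and that of all genes was −0.01. The tables were made separately, with 1 value per control, so these ratios have no test. Of the 37 members, 35 were higher in the control of the CBD table, and the exceptions were Il1b at −0.83 and Plaur at −0.00 on the log2 scale.

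Fos and Egr1 had the widest gaps, with 0.1 FPKM added, of the members tested in both tables. Fos, the AP-1 subunit that dimerizes with JUN proteins, was at 10.01 FPKM in the control of the CBD table and 0.151 in that of the 4-OHT table. Egr1, a zinc finger factor induced by growth signals, stood at 57.6 and 2.26 FPKM, a ratio of 24.4. Atf3, a stress-induced member of the AP-1 family, was at 17.0 and 1.09 FPKM. For all of these the untreated cells of one table held more transcript than any cells of the other. Dusp1, a phosphatase that inactivates MAP kinases, was at 8.40 and 0.859 FPKM, and Nr4a1, an orphan nuclear receptor, at 9.87 and 1.17 FPKM. By role the median log2 ratio between controls was 2.03 over 7 AP-1 subunits and 1.83 over 2 NR4A receptors. It was 1.36 over 6 other immediate early genes and 2.79 over 3 feedback genes. Among NF-kB genes it was 1.26 over 5 subunits, 0.68 over 6 inhibitors and regulators, and 1.48 over 4 ligands. The 3 surface and other proteins were near parity at 0.03. The 19 immediate early genes together had a median of 2.03 and the 18 NF-kB genes one of 0.73.

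**Figure D1:**
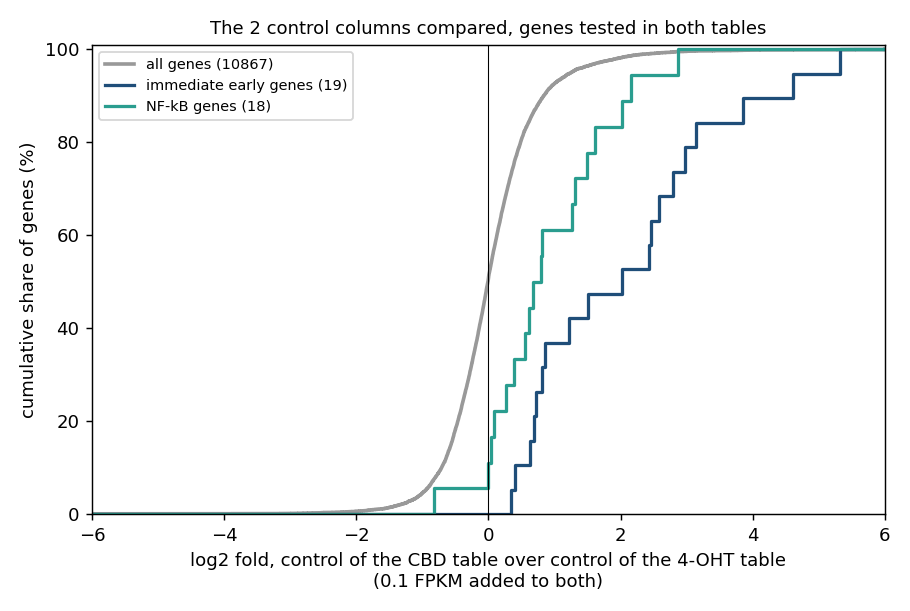
Cumulative share of genes in percent (y axis) against the log2 fold of the control of the CBD table over the control of the 4-OHT table (x axis, 0.1 FPKM added), for all 10867 genes tested in both tables, 19 immediate early genes and 18 NF-kB genes. The immediate early curve lies wholly right of 0 with a median of 2.03, the NF-kB curve lies between it and all genes over most of the range with a median of 0.73, and the curve of all genes is centred near 0.

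Because of this gap, each treated column is set against both controls. With 4-OHT against its own control, 26 of the 37 tested members rose (70.3%, against 27.2% of all genes tested) and 1 fell (2.70%, against 16.9%). Tested members had a median log2 fold of 0.62, a 1.54-fold difference, beside 0.05 over all genes tested. Rises reached 2-fold in 6 of the 26, namely Fos, Atf3, Egr1, Nr4a1, Ier3 and Tnf, which is 23.1% of the risers against 8.12% of all genes that rose. Set against the control of the CBD table, 22 of the 26 risers had a lower 4-OHT value. Among all 2971 genes that rose and were tested in both tables, 49.1% did so. In 27 of 37 members (73.0%, against 52.9% of all genes) the 4-OHT value lay between the control columns. No member was at least 2-fold above the control of the CBD table and 14 were at least 2-fold below it, beside 4.25% and 4.05% of all genes. This second comparison crosses separately made tables and has no test.

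AP-1 subunits rose in 5 of 7 tested cases with 4-OHT (71.4%, against 27.2% of all genes tested). Fos rose from 0.151 to 0.641 FPKM (log2 1.56, and in the authors' deposited table q = 0.00123). It remained far below the 10.01 FPKM of the other control, at a log2 ratio of −3.77. Atf3 rose from 1.09 to 3.12 FPKM, with 17.0 in the other control. Jun, the partner of FOS, rose from 6.34 to 9.79 FPKM and came close to the other control at 11.5. Junb, a weaker activator of the same family, stood at 13.8 and 16.4 FPKM in the control and with 4-OHT, a log2 fold of 0.24, and at 56.7 in the other control. Jund stood at 5.75, 7.53 and 32.0 FPKM in the same order. Both passed the test in the authors' deposited table (q = 0.00964 and q = 0.000177), although the steps were small beside the distance between the controls. Fosl1, which encodes FRA1, was the single member that fell, from 0.516 to 0.136 FPKM (in the authors' deposited table q = 0.0418). Fosl2, which encodes FRA2, stood at 2.32 and 2.72 FPKM (in the authors' deposited table q = 0.0527). With 0.01 in place of 0.1 FPKM added, the log2 fold of Fos was 2.01, above the 1.68 of Egr1, so the order of these folds depends on the added value. With 1 FPKM added it was 0.51 for Fos, 0.98 for Atf3, 0.93 for Nr4a1 and 0.76 for Tnf, all under 2-fold. Egr1 (1.34) and Ier3 (1.21) stayed above 2-fold with that value.

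Egr1 rose from 2.26 to 7.26 FPKM with 4-OHT, a 3.12-fold rise with 0.1 FPKM added (the authors' deposited table lists its q as 0). In the mm9 build it lies on chromosome 18 at 35020861 to 35024610. Against the other control, at 57.6 FPKM, the 4-OHT value was lower by 7.83-fold. Egr2 and Egr3, its relatives, were not tested here and stood under 0.1 FPKM in both columns, and Egr3 is listed at 0 in the control of the 4-OHT table. Nr4a1 rose from 1.17 to 3.13 FPKM, and Nr4a2, a related receptor, stood at 1.68 and 1.84 FPKM (in the authors' deposited table q = 0.540).

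All 6 tested genes of the remaining immediate early group rose with 4-OHT (100%, against 27.2% of all genes tested). Ier3, an early gene product linked to cell survival that is encoded on chromosome 17 at 35958658 to 35959856 in mm9, went from 15.0 to 35.9 FPKM, and the other control held 42.8. Ier2, a nuclear protein, rose from 23.4 to 36.5 FPKM but stood at 141 in the other control. Csrnp1, a nuclear protein of the same early response, went from 2.90 to 5.60 FPKM beside 16.1. The zinc finger factor Klf6 (17.7 to 24.2 FPKM) and Ier5 (11.02 to 13.6 FPKM) also rose and stayed below the other control, at 41.5 and 14.6 FPKM. Btg2, an antiproliferative gene that works with mRNA deadenylases, rose from 9.36 to 15.5 FPKM and exceeded the other control at 11.9. Among feedback genes, Dusp1 rose from 0.859 to 1.68 FPKM and Zfp36, whose protein destabilizes AU-rich mRNAs, from 2.63 to 4.35 FPKM. Zfp36 stood at 18.8 FPKM in the other control. Dusp2, a MAP kinase phosphatase of immune cells, was at 8.09 and 7.95 FPKM (in the authors' deposited table q = 0.879).

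NF-kB genes rose in 11 of 18 tested cases with 4-OHT (61.1%, against 27.2% of all genes tested), and none fell (against 16.9%). The median log2 fold of the 18 was 0.41, beside 0.64 for the 19 immediate early genes, a difference that was not tested. Among subunits, Nfkb2, the precursor of p52, rose from 6.98 to 11.3 FPKM, and its partner Relb rose from 2.01 to 3.57 FPKM. The other control held 17.5 and 8.51 FPKM of these genes of the non-canonical pathway. Nfkb1, the precursor of p50, stood at 38.4 FPKM in the control and 44.9 with 4-OHT, a small rise (log2 0.23, and in the authors' deposited table q = 0.000378), beside 61.4 in the other control. Rela, the main transactivating subunit p65, was at 40.4 and 41.5 FPKM (in the authors' deposited table q = 0.607), and Rel was at 0.328 and 0.509 FPKM (in the authors' deposited table q = 0.172).

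Inhibitors and regulators of NF-kB rose in 5 of 6 tested cases with 4-OHT (83.3%, against 27.2% of all genes tested). Nfkbia, which encodes IkB alpha and is itself an NF-kB target, rose from 5.05 to 8.26 FPKM beside 14.4 in the other control. Nfkbie, which encodes IkB epsilon, went from 2.23 to 3.72 FPKM, close to the 3.94 of the other control. Bcl3, an IkB family protein of the nucleus, rose from 1.98 to 3.74 FPKM beside 6.28. Tnfaip3, which encodes the ubiquitin editing enzyme A20, rose from 3.91 to 4.80 FPKM and Birc3, which encodes the ubiquitin ligase cIAP2, from 6.16 to 9.76 FPKM. Both exceeded the other control, at 4.15 and 9.14 FPKM. Nfkbib, which encodes IkB beta, stood at 18.1 and 16.6 FPKM (in the authors' deposited table q = 0.179). Traf1, which encodes an adaptor of tumor necrosis factor receptors, was not tested with 4-OHT, at 0.0924 and 0.183 FPKM.

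Of the ligands, Tnf rose from 0.887 to 2.21 FPKM (in the authors' deposited table q = 1.54e-05) and the chemokine gene Cxcl2 from 1.23 to 2.43 FPKM. The other control was higher for both, at 7.15 and 5.88 FPKM. Cxcl10, an interferon-induced chemokine gene, stood at 0.331 and 0.321 FPKM. The chemokine gene Ccl4 was not tested, at 0.342 and 0.184 FPKM. Icam1, an adhesion molecule, rose from 12.9 to 16.1 FPKM and was near the other control at 15.6. Plaur, the urokinase receptor gene, stood at 4.40 and 5.43 FPKM (in the authors' deposited table q = 0.0917) beside 4.39. Tnfaip2, a tumor necrosis factor target, was level at 67.4 and 64.9 FPKM beside 69.0 (in the authors' deposited table q = 0.456). Thus Btg2, Tnfaip3, Birc3 and Icam1 were the 4 risers above both control columns, by log2 differences of 0.38 down to 0.04 from the control of the CBD table.

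**Figure D2:**
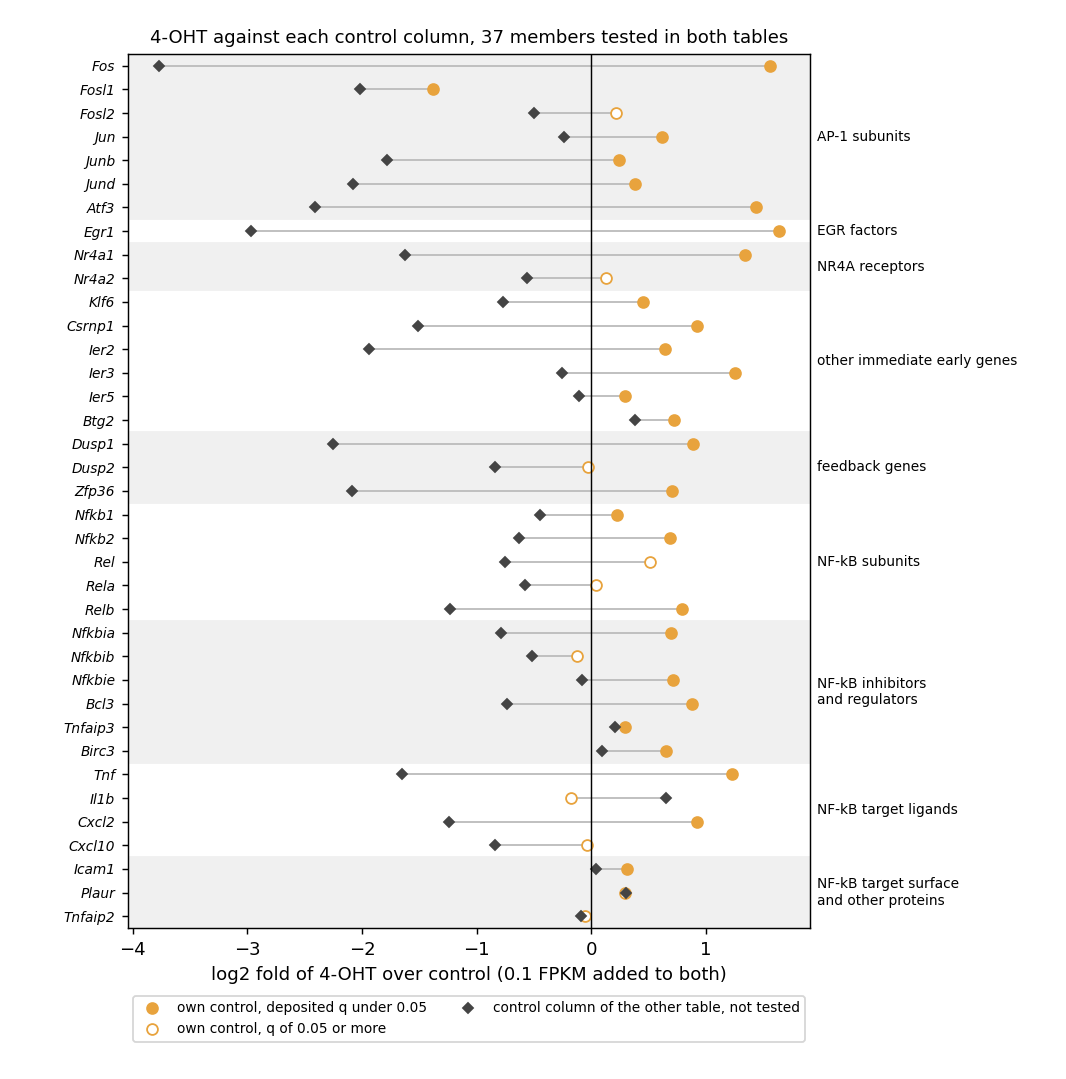
Log2 fold of 4-OHT over each control column (x axis, 0.1 FPKM added) for the 37 members tested in both tables, ordered by role (y axis). Circles are the own control, filled where the deposited q is under 0.05, and diamonds are the control column of the CBD table, with no test. The circles lie mostly right of 0 and the diamonds mostly left of it, with 31 of 37 diamonds negative.

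With CBD against its own control, few members passed the test. Of 44 tested members, 1 rose (2.27%, against 18.4% of all genes tested) and 5 fell (11.4%, against 7.74%). The median log2 fold was −0.30 beside 0.29 over all genes tested, with 28 members negative and 16 positive. Of the 13751 genes tested with CBD, 9489 were at 1 FPKM or more in both controls, and of these 10.4% rose, 11.1% fell and the median log2 fold was 0.04. Of the 30 members at that level 0 rose and 5 fell (16.7%), with a median of −0.30. An unadjusted p under 0.05 was held by 13 members (29.5%, against 35.3% of all genes tested) in the authors' deposited table. With CBD the smallest size of a called log2 change was 0.65 among members and 0.13 over all genes, and the median size was 1.16 and 1.71. With 4-OHT the smallest was 0.23 among members and 0.06 over all genes, and the median 0.71 and 0.31. Over all genes at 1 FPKM or more in both controls the median size was 1.03 with CBD and 0.29 with 4-OHT.

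Of the 22 tested immediate early genes, Egr1 and Ier2 fell with CBD (9.09%, near the 7.74% of all genes tested) and 1 rose (4.55%, against 18.4%). The median log2 fold of the 22 was −0.64, with 17 negative and 5 positive. Egr1 dropped from 57.6 to 5.28 FPKM, a 10.7-fold difference (log2 −3.42, and in the authors' deposited table q = 3.83e-08). Ier2, on chromosome 8 at 87185230 to 87186751 in mm9, dropped from 141 to 59.7 FPKM (log2 −1.23, and in the authors' deposited table q = 5.96e-05). Both CBD values were nevertheless above the control of the 4-OHT table, at 2.26 and 23.4 FPKM. None of the 8 tested AP-1 subunits passed the test, beside the 18.4% of all genes tested that rose and the 7.74% that fell. Fos was at 10.01 FPKM in the control and 2.84 with CBD (in the authors' deposited table q = 0.123), Jun at 11.5 and 5.10 (q = 0.118), and Atf3 at 17.0 and 8.52 (q = 0.190). Junb was at 56.7 and 46.0 FPKM, Jund at 32.0 and 31.5, and Fosl2 at 3.88 and 4.25. Fosl1 was the one AP-1 gene with a large positive value, 0.856 against 4.33 FPKM (in the authors' deposited table q = 0.0661).

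Nr4a1 was at 9.87 FPKM in the control and 2.01 with CBD, and Nr4a2 at 2.76 and 0.739 (q = 0.0583 and q = 0.108 in the authors' deposited table). Both had an unadjusted p under 0.05. The feedback genes had like values without a call. Dusp1 was at 8.40 and 3.38 FPKM, Dusp2 at 14.3 and 5.70, and Zfp36 at 18.8 and 8.74, with q between 0.168 and 0.267 in the authors' deposited table. Klf6 (41.5 and 56.3 FPKM), Ier3 (42.8 and 58.2), Csrnp1 (16.1 and 13.1), Ier5 (14.6 and 13.7) and Btg2 (11.9 and 11.04) did not pass the test.

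Arc, a synaptic cytoskeleton gene induced by activity in neurons, was the single riser. It stood at 0.00882 FPKM in the control and 4.28 with CBD (in the authors' deposited table q = 0.000268), and at 0 and 0.0311 in the 4-OHT table. Markers of neural cells were high in the same column. Of 19 neuron, oligodendrocyte and astrocyte markers found, 16 rose with CBD and 0 fell, and their summed level was 104 FPKM in the control, 496 with CBD, and 47.1 and 54.8 in the control and 4-OHT columns of the other table. Tubb3, Mbp and Aldoc made up 102 of the 104 FPKM, and the other 16 markers together stood at 2.0 FPKM in the control and 214 with CBD. In the control of the CBD table Rbfox3, Mog and S100b of these markers were listed at 0, and with CBD none was. Stmn2, Nefl, Gad1, Mog, Mag, Mobp and Aqp4 were listed at 0 in the control of the 4-OHT table. The part of such transcripts in the Arc value was not tested.

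Among the 22 tested NF-kB genes, 3 fell with CBD (13.6%, against 7.74% of all genes tested) and none rose (against 18.4%). Their median log2 fold was −0.01, with 11 positive and 11 negative. Nfkb1, on chromosome 3 at 135247619 to 135354511 in mm9, fell from 61.4 to 36.2 FPKM (log2 −0.76, and in the authors' deposited table q = 0.0112). Rela, on chromosome 19 at 5637490 to 5648130, fell from 62.1 to 39.6 FPKM (log2 −0.65, and in the authors' deposited table q = 0.0466). With CBD both were near the other control, at 38.4 and 40.4 FPKM. Tnfaip2, on chromosome 12 at 112680872 to 112693229, fell from 69.0 to 32.4 FPKM (log2 −1.09, and in the authors' deposited table q = 0.000183). Of the 5 members that fell it alone was lower by a like size against both controls. The control of the 4-OHT table held 67.4 FPKM, which gave a log2 ratio of −1.05.

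None of the 7 tested inhibitors and regulators passed the test with CBD, where 18.4% of all genes tested rose and 7.74% fell. Nfkbie stood at 3.94 and 8.94 FPKM (in the authors' deposited table q = 0.0647), Nfkbia at 14.4 and 18.6, Birc3 at 9.14 and 12.2, Bcl3 at 6.28 and 7.50, and Nfkbib at 23.8 and 25.4. Tnfaip3 was at 4.15 and 3.18 FPKM, and Traf1 at 1.08 and 0.520. The remaining subunits Nfkb2 (17.5 and 14.1 FPKM), Relb (8.51 and 7.82) and Rel (0.924 and 1.42) had q from 0.523 to 0.907 in the authors' deposited table.

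None of the 6 tested ligands passed the test with CBD either, where 18.4% of all genes tested rose and 7.74% fell. Tnf was at 7.15 FPKM in the control and 2.63 with CBD, Cxcl2 at 5.88 and 1.70, and Ccl4 at 1.64 and 1.09. Cxcl10 was at 0.654 and 1.26 FPKM. Icam1 was at 15.6 and 20.8 FPKM and Plaur at 4.39 and 9.36 (q = 0.354 and q = 0.230 in the authors' deposited table). Cd83, a surface marker of activated dendritic cells, was at 1.79 FPKM with CBD and listed at 0 in the other 3 columns (in the authors' deposited table q = 0.166). Summed monocyte and macrophage markers, 11 genes, stood at 3.58 FPKM in the control of the CBD table, 21.4 with CBD, and 3.78 and 4.92 in the other table, with 4 of 9 tested rising with CBD. C1qb was listed at 0 in the control of the CBD table, and none of these markers was with CBD. Their part in the Cd83 value was not tested.

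Against the control of the 4-OHT table the CBD values were mostly high. Of the 37 members, 21 were at least 2-fold higher and 2 at least 2-fold lower (Nr4a2 and Tnfaip2), where the shares over all genes were 17.0% and 12.1%. The median log2 ratio was 1.19, beside 0.06 over all genes. Fos was higher there by 11.7-fold, Atf3 by 7.26-fold, Fosl1 by 7.19-fold and Jund by 5.40-fold, and none of these passed the test against the own control. Direct comparison of the treated columns gave CBD at least 2-fold above 4-OHT in 12 members (13.8% of all genes) and at least 2-fold below in 1, Nr4a2 (12.8%). These comparisons also cross tables and were not tested.

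**Figure D3:**
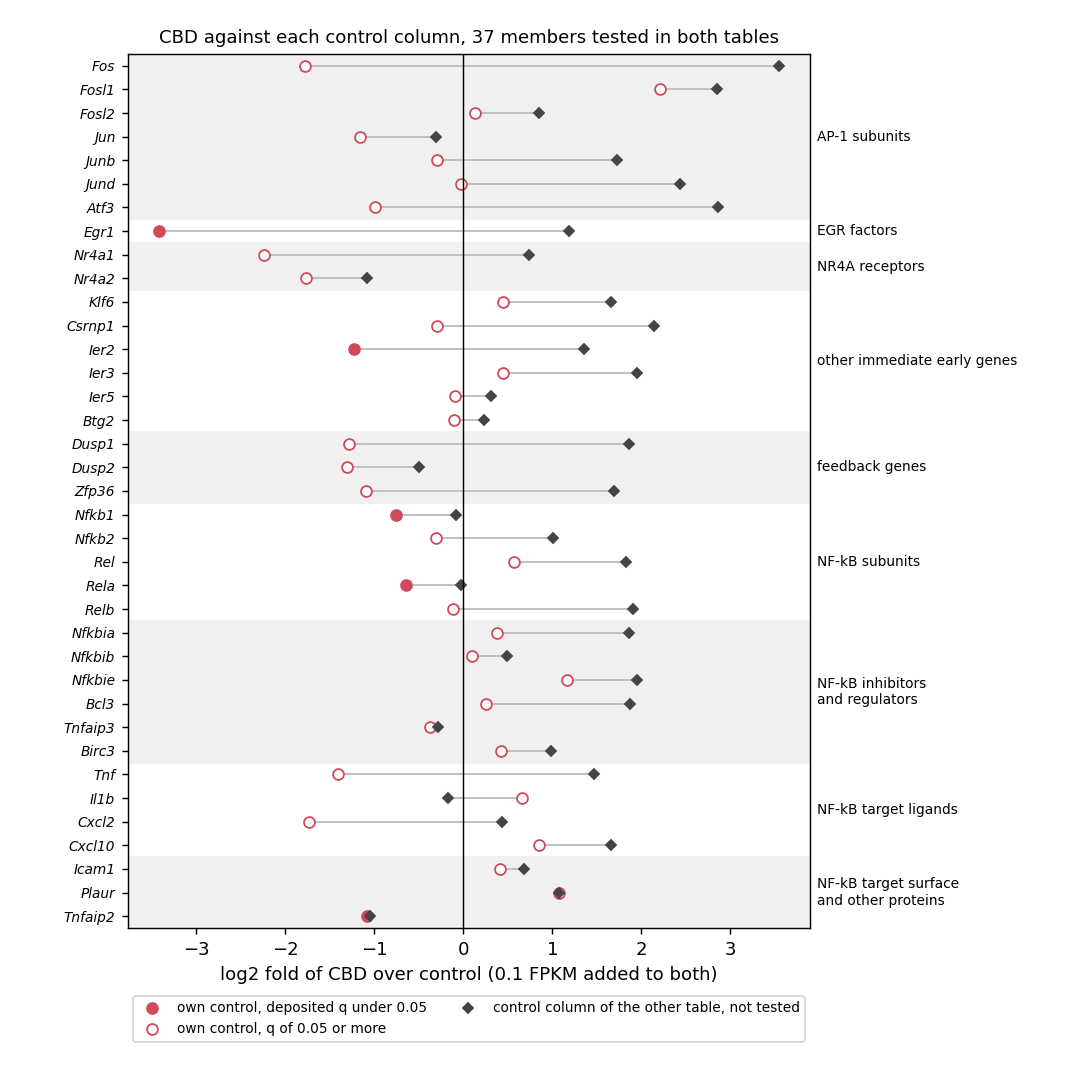
Log2 fold of CBD over each control column (x axis, 0.1 FPKM added) for the 37 members tested in both tables, ordered by role (y axis). Circles are the own control, filled where the deposited q is under 0.05, and diamonds are the control column of the 4-OHT table, with no test. Filled circles are Egr1, Ier2, Nfkb1, Rela and Tnfaip2, and diamonds lie right of 0 for 29 of 37 members.

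The control of the CBD table was the highest column in 21 of the 37 members (56.8%, against 17.8% of all genes), and the control of the 4-OHT table the lowest in 25 (67.6%, against 29.3%). The full order from the control of the 4-OHT table through 4-OHT and CBD to the control of the CBD table was seen in 12 members (32.4%, against 4.92%). Egr1, Ier2 and Nfkb1 changed in both comparisons, each falling with CBD and rising with 4-OHT. With 4-OHT 70.3% of tested members rose (27.2% of all genes tested), and 7.74% of all genes tested fell with CBD. The share of all genes with both calls was not computed, so this overlap is only a description. Egr1 ended at 5.28 and 7.26 FPKM in the treated columns, Ier2 at 59.7 and 36.5, and Nfkb1 at 36.2 and 44.9, so treated values differed less than control values in each. The difference between these responses was not tested, as it would need values per library.

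**Figure D4:**
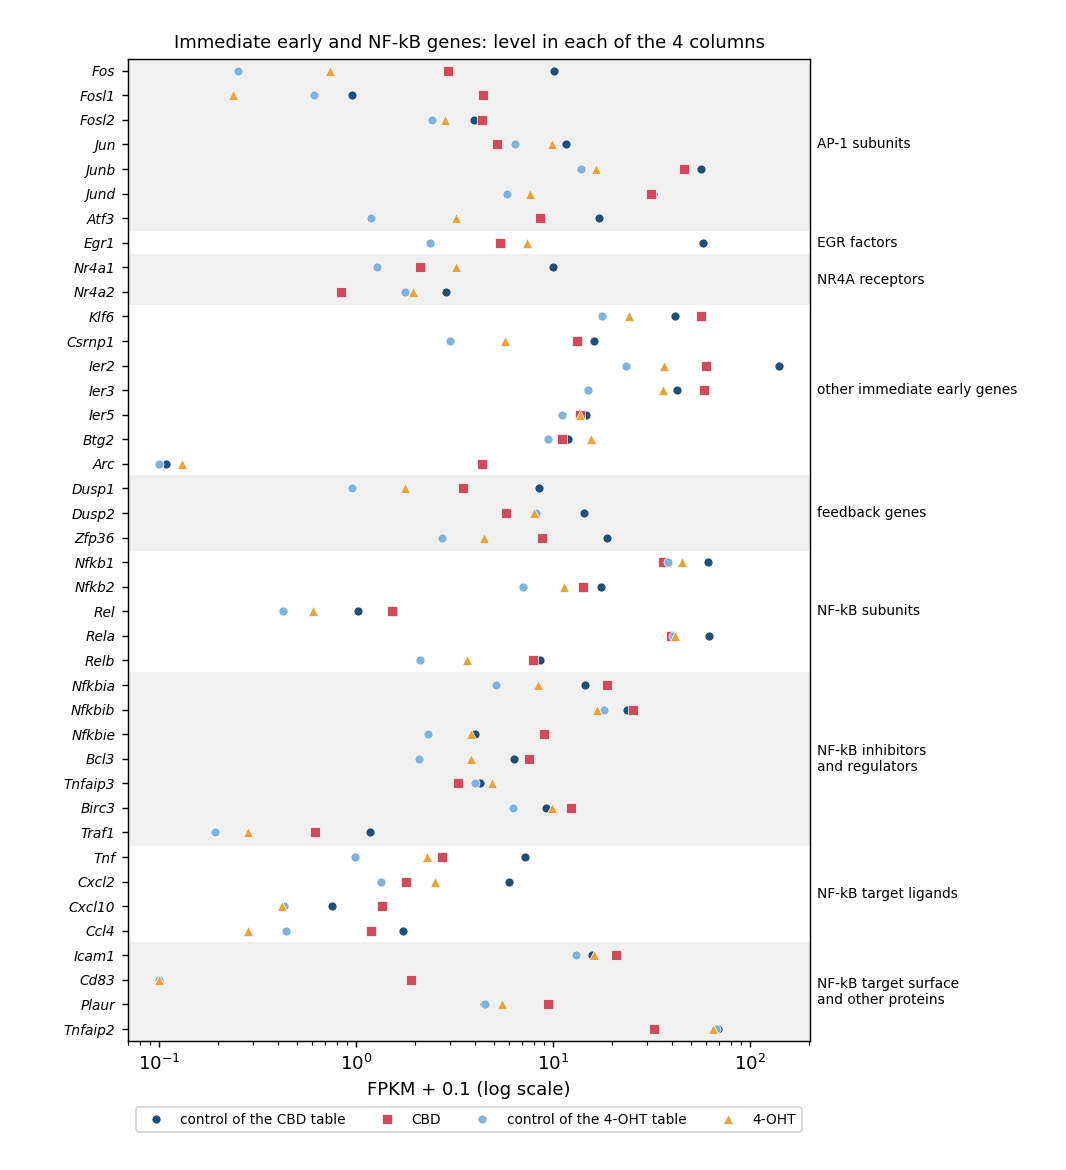
FPKM of members in the 4 columns, with 0.1 added and on a log scale, ordered by role. Only the 40 members that reached 1 FPKM in at least 1 column are shown. The control of the CBD table is the rightmost symbol for most early transcription factors and the control of the 4-OHT table the leftmost, while Tnfaip2, Icam1 and Tnfaip3 show the controls close together.

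Genes around the members were followed through 4 further lists. Of 24 further immediate early genes, 12 of 19 tested rose with 4-OHT (63.2%, against 27.2% of all genes) and Myc fell (5.26%, against 16.9%). All 12 risers lay below the control of the CBD table, beside 49.1% of all genes that rose and were tested in both tables. Nfil3, a leucine zipper repressor, went from 1.55 to 5.14 FPKM, Maff, a small MAF factor, from 0.604 to 1.79, and Gadd45b, a stress gene, from 2.36 to 6.41. With CBD 2 of 24 rose (8.33%, against 18.4%) and 4 fell (16.7%, against 7.74%), among the latter Ppp1r15a, a regulatory subunit of a phosphatase of the stress response, from 92.1 to 54.1 FPKM. The 2 that rose were Ier5l, from 0.0184 to 0.719 FPKM, and Dusp4, from 0.314 to 2.37. Of 24 further NF-kB targets, 12 of 17 tested rose with 4-OHT (70.6%, against 27.2%) and Sod2 fell (5.88%, against 16.9%). Of the 12 risers 9 lay below the other control, beside the same 49.1% of all risers. Psmb9, an immunoproteasome subunit, rose from 29.9 to 54.9 FPKM and Irf1, an interferon regulatory factor, from 1.67 to 2.99. With CBD 4 of 21 rose (19.0%, near the 18.4% of all genes) and none fell, and Tapbp, a chaperone of antigen loading, went from 50.9 to 86.7 FPKM. Vcam1 had the largest of these rises, from 0.00787 to 1.27 FPKM. Summed neural and macrophage markers were also higher with CBD, as given above, and the part of other cell types in the Vcam1 and Ier5l values was not tested.

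The signalling genes above them differed less between controls. The median log2 ratio of the controls was 0.26 for genes upstream of NF-kB and 0.01 for genes upstream of immediate early transcription, beside 0.64 for the further NF-kB targets and 0.70 for the further immediate early genes. Of the genes upstream of NF-kB, 8 of 19 tested rose (42.1%, against 27.2%) and 2 fell (10.5%, against 16.9%) with 4-OHT. The kinase gene Ikbkb was among the risers, from 14.1 to 17.4 FPKM. Of the 7 risers tested in both tables, 5 lay below the other control, beside 49.1% of all genes that rose and were tested in both. With CBD 3 of 18 rose (16.7%) and 2 fell (11.1%), near the shares of all genes at 18.4% and 7.74%, and the adaptor gene Tradd went from 25.1 to 47.2 FPKM. Tnfrsf1a had the largest of these rises, from 0.0257 to 0.779 FPKM, and the part of other cell types in this value was not tested. Of the genes upstream of immediate early transcription, 5 of 22 rose (22.7%) and 4 fell (18.2%) with 4-OHT, near the 27.2% and 16.9% of all genes. With CBD 2 of 21 rose (9.52%, against 18.4%) and 0 fell. Mapk3, which encodes ERK1, rose with 4-OHT from 21.1 to 31.2 FPKM.

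Fold changes with CBD went with transcript length. Over the 5350 genes with both controls at 10 FPKM or above, Spearman's rho of log2 fold with transcript length was −0.41 for CBD, −0.07 for 4-OHT and 0.03 for the ratio of the controls. Genes share library and depth, so these are descriptions across genes. With the length trend subtracted, the median of the 37 members tested in both tables was −0.22 for CBD, 0.62 for 4-OHT and 1.25 for the controls. Over the 44 members tested with CBD, the median for CBD was −0.24, beside −0.30 without the subtraction. Members had a median length of 2766.5 bp. For the ratio of the controls the trend at the members lay only between −0.12 and −0.008, so subtracting it could change their gap little.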

How the data were processed

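RNA was taken from 6 samples with a column kit, and libraries followed Illumina protocols, per the labels. Per the submitters' processing notes, Bowtie 0.12.2, the mm9 build and Cuffdiff were used. The version and settings of Cuffdiff were not given in the sources used here, nor were its gene models. Both tables hold FPKM values computed by the authors, 1 per group, per the file headers. The p-value and q-value columns are those of the authors' deposited test, and q recomputed from p by the Benjamini-Hochberg method was within 1.52e-06 of it. The log2 fold and test statistic columns that the authors deposited were not used for results. Read counts and depths are not used here, so depth is unknown and no interval was computed.

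A gene was tested when the deposited status was OK. All log2 folds were recomputed with 0.1 FPKM added, in Python 3.11.15 with pandas 2.3.3 and scipy 1.17.1, and the code was tested on simulated data. Starts in the tables had 1 added. Lengths came from GENCODE vM21 and cover 19534 genes (89.3%) and all 48 members, with a trend over 20 length bins.

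Members, lists and their roles were chosen with earlier results of these data known. Values in all columns were given for members tested in at least 1 table with at least 1 FPKM in a column. Examples from the further lists were not chosen by size of fold alone. Promoters were to be printed for members with q under 0.05 in both tables and 10 FPKM. That left Egr1, Ier2 and Nfkb1, which the table does not hold, so 5 others were chosen after their values were seen. These had a call with 4-OHT, 10 FPKM or more in a column, 1 promoter in the table and a match before the start. The largest absolute log2 folds with 4-OHT were taken. Alternatives were another q, pseudocount, control column, centring and the length trend. Marker lists not described in the report stood as follows, in the order CBD-table control, CBD, 4-OHT-table control, 4-OHT: B and T cells at a summed 0.101, 0.809, 0.137 and 0.108 FPKM, endothelium and stroma at 1.99, 20.8, 1.21 and 2.01, and neutrophils at 0, 0.153, 0 and 0.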

Additional observations from a re-analysis of the deposited data

How the results depend on the processing

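No paired analysis was possible because the tables hold 1 value per group, and for the same reason no replicate could be left out. Of the 33 changes passing the deposited threshold, all kept their direction and had a log2 fold within 1.5 times the reported one with 0.01 FPKM added, with centring on the median gene and with the length trend subtracted, and 5 moved by more with 1 FPKM added. On the log2 scale Arc with CBD went from 5.33 to 7.83 with 0.01 FPKM added and 2.39 with 1 FPKM added. The 27 calls with 4-OHT became 7 when at least 2-fold was also required and 5 when the same direction against the control of the CBD table was required. The 6 calls with CBD stayed between 4 and 6. The choice of control decided the direction: the median log2 fold of the tested members became 1.39 with CBD and −0.75 with 4-OHT against the other control, and the cause was not tested. With CBD, Egr1 (1.19) and Ier2 (1.35) reversed there. With 4-OHT the log2 ratio to the other control was −3.77 for Fos, −0.24 for Jun, −1.78 for Junb, −2.07 for Jund, −2.41 for Atf3, −2.97 for Egr1, −1.63 for Nr4a1, −0.77 for Klf6, −1.51 for Csrnp1, −1.94 for Ier2, −0.25 for Ier3, −0.11 for Ier5, −2.26 for Dusp1, −2.08 for Zfp36, −0.45 for Nfkb1, −0.63 for Nfkb2, −1.23 for Relb, −0.79 for Nfkbia, −0.081 for Nfkbie, −0.73 for Bcl3, −1.65 for Tnf and −1.24 for Cxcl2. The 2-fold counts between columns of different tables ranged from 16 to 31 (CBD), 13 to 19 (4-OHT) and 18 to 24 (controls) over the settings run. Depth is unknown, so values under 1 FPKM carry an unknown counting error.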

Other observations

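Of the 94 genes in the 4 further lists, 3 rose in both comparisons. Over all genes tested, 18.4% rose with CBD and 27.2% with 4-OHT. The share of all genes that rose in both was not computed, so the 3 cannot be called more or fewer than the background. Map2k1, which encodes the kinase MEK1 above ERK, stood at 24.6 FPKM in the control and 43.5 with CBD (q = 0.0109 in the authors' deposited table), and at 21.1 and 36.3 FPKM with 4-OHT (q listed as 0 there). Its controls lay close together, and both treated values exceeded both controls. Tnfaip8, a target of tumor necrosis factor signalling, went from 23.2 to 40.2 FPKM with CBD and from 12.5 to 14.4 with 4-OHT. Tap1, a peptide transporter of antigen processing, went from 25.7 to 48.6 FPKM and from 12.4 to 15.6. For Tnfaip8 and Tap1 the 4-OHT value was below the control of the CBD table. Mapk9, which encodes the kinase JNK2, rose with CBD from 10.5 to 15.3 FPKM and fell with 4-OHT from 19.7 to 15.6, and the difference between these responses was not tested. The comparisons used different control columns throughout.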
